A study of Mus musculus with 6 samples.

Results

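A set of 10 genes that regulate cone photoreceptor fate and the choice of opsin was examined in the mouse retina at postnatal day 7 (P7). The members were chosen for their known roles, by symbol and with earlier results of these data known: *Thrb*, *Rxrg*, *Rora*, *Rorb*, *Crx*, *Nr2f1*, *Nr2f2*, *Sall3*, *Neurod1*, and *Dio3*. All 10 were found among the 21744 genes of the expression table, and all 10 passed the filter on low values. The series holds 6 RNA-seq libraries on a mixed C57BL/6J and 129S6 background, each made from the retinas of 1 mouse: 3 mice were controls and 3 were *Lhx4* null. Animals of both sexes were used, and the sex of each is not given in the sources used here. LHX4 is a LIM-homeodomain transcription factor. The study's null mice were *Lhx4* tdT/loxP; *Six3*-Cre, with a tdTomato knockin allele, a conditional allele, and a Cre that acts in the retina. Its controls were wild type or *Lhx4* loxP/+ for recordings and *Lhx4* tdT/+ or *Lhx4* loxP/tdT for reporter counts, and which of these gave the control retinas is not given in the sources used here. The retina was sequenced whole, so that the values do not separate cones from other cells. The study describes removing the pigment epithelium by dissection, but RNA of pigment epithelium genes was present, as given below.

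Cones of the mouse retina make S-opsin (*Opn1sw*), M-opsin (*Opn1mw*), or both. Thyroid hormone acts through its receptor THRB, which binds DNA together with a retinoid X receptor such as RXRG, to favor M-opsin and hold back S-opsin, while the orphan receptors RORA and RORB and the homeodomain protein CRX promote opsin transcription. The COUP-TF receptors NR2F1 and NR2F2 take part in the dorsal to ventral pattern of opsins, SALL3 in S-cone genes, and NEUROD1 in the upkeep of THRB. DIO3 is the deiodinase that inactivates thyroid hormone. Most of these genes are also made by other retinal cells. *Crx* is made by rods and bipolar cell precursors, *Neurod1* by rods and some amacrine cells, *Rora*, *Rorb*, *Nr2f1*, and *Nr2f2* by inner retinal neurons, and *Sall3* by horizontal and bipolar cells.

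The DNA before the transcription start was read for 5 windows, chosen with the values below in view. No comparison of the groups rests on them. They include both annotated starts of *Rxrg*, which showed the largest difference of the 10, and the first start of its partner *Thrb*. The others are the start of *Crx*, the most abundant of the 10, and the start of *Opn1sw*, an opsin under their control. Each window holds the 250 bases before a start annotated in RefSeq on GRCm38.p6, written 5′ to 3′ in the direction of the gene. Capitals mark AGGTCA, the core that nuclear receptors bind, and TAATCC, the core that CRX and OTX2 bind, each searched on both strands (TGACCT and GGATTA on the other strand). The homeodomain core TAATTA was also searched. The windows do not show that a factor binds there.
*Rxrg* first start, chr1:167598112-167598361, + strand: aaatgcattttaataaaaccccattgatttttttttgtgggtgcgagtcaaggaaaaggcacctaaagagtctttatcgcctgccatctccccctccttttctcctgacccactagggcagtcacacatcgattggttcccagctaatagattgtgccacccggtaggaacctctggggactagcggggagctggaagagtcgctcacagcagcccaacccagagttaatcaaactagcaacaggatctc
*Rxrg* second start, chr1:167618015-167618264, + strand: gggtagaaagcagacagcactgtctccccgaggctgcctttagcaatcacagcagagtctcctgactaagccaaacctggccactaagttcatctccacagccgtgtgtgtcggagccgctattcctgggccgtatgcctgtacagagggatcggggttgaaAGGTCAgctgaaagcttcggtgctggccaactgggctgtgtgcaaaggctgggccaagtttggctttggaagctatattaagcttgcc
*Thrb* first start, chr14:17660710-17660959, + strand: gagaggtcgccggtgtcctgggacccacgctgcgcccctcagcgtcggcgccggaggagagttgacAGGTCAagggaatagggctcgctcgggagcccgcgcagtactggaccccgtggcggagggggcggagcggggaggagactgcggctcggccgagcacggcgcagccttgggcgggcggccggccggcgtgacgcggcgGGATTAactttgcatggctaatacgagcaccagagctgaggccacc
*Crx*, chr7:15879956-15880205, − strand: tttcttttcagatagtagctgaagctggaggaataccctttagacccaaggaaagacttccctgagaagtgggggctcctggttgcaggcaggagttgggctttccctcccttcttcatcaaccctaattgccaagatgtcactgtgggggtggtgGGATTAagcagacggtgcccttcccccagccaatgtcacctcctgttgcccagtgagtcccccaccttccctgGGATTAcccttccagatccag
*Opn1sw*, chr6:29380514-29380763, − strand: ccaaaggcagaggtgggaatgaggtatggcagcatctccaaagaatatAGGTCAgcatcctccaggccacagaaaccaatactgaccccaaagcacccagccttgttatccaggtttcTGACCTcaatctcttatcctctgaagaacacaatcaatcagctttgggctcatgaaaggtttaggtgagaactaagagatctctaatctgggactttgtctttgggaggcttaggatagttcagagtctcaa

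The window of *Opn1sw* held AGGTCA at 202 bases before the start and TGACCT at 132, and the second window of *Rxrg* held AGGTCA at 88. The first window of *Thrb* held AGGTCA at 184 bases before the start and GGATTA at 46, and *Crx* held GGATTA at 94 and at 21. None of the 5 held TAATTA. The window of the second *Thrb* start, which is not printed, held neither TAATTA nor the other cores. Windows were listed for 9 of the 10 regulators, 13 starts in all, and beside those printed only *Nr2f2* held one of the cores (TAATCC at 233 bases before the start and GGATTA at 27). Of 32851 windows of the same length from all genes, 14.0% held the receptor core on either strand, 6.25% the CRX core, and 4.84% TAATTA. Because *Rxrg*, *Thrb*, *Rorb*, and *Nr2f1* are listed with more than 1 start and the FPKM are summed per gene, isoforms such as the cone form of THRB were not measured apart.

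The authors mapped paired-end reads with TopHat2 on GRCm38 and estimated expression with Cufflinks as FPKM. These are fragment numbers scaled to transcript length and to all mapped fragments, which puts genes on a common scale. Exons shared with or opposite to other genes can still affect levels compared between genes. Groups were compared on log2(FPKM + 0.1) with limma over the 15200 genes whose mean reached 0.1 FPKM. All fold changes refer to that log2 scale, where the added 0.1 makes changes of low genes look smaller than they are. The table carries no fragment totals, but the steps between its lowest values gave the relative depth: the deepest was control replicate 3, the other controls had 76.8% and 95.7% of its depth, and retinas labelled *Lhx4* null 46.7% to 65.9%. Libraries correlated across genes with r between 0.977 and 0.991 within a group and between 0.9752 and 0.989 between groups. *Lhx4* itself was at 20.9, 23.8, and 19.1 FPKM across control replicates 1, 2, and 3 and at 31.2, 30.3, and 29.0 FPKM in the others, so that the gene targeted in the null mice was higher, not lower, at the level of the whole gene (log2 fold change 0.51, standard error 0.091, adjusted p = 0.098 from limma). The bipolar genes went the other way: *Bhlhe23*, a factor of rod bipolar cells, was at 10.2, 13.02, and 10.6 FPKM in controls and at 0.814, 0.563, and 0.830 FPKM in the mutants (log2 fold change -3.78, adjusted p = 0.00017 from limma), and *Grm6*, *Grik1*, *Fezf2*, and *Lhx3* also fell, so that these genes separated the 6 libraries as the labels do. The study itself reported these genes as reduced at P7 from the same data, and that report is no independent check of the labels. It also stained sections, which are separate from these libraries. On sections of *Lhx4* null retinas it found less *Grm6* and *Grik1* RNA and fewer LHX3 and FEZF2 cells at P7. *Bhlhe23* RNA was lost on sections at P6. The libraries labelled *Lhx4* null differed from controls in the same direction for these genes. Because *Lhx4* itself was not lower, the mutant group is named by its label.

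None of the 10 regulators differed between the groups after adjustment over all genes. In limma, 0 of 10 had an adjusted p under 0.05, against 0.224% of all genes tested, and 4 of 10 had an unadjusted p under 0.05, against 8.15% of all genes. Of these 4, *Rxrg*, *Sall3*, and *Nr2f1* were higher in the retinas labelled *Lhx4* null (4.6% of all genes) and *Rora* was lower (3.55% of all genes). The same 4 were the members whose groups did not overlap, 3 higher and 1 lower, against 8.1% and 6.13% of all genes. The median log2 fold change of the 10 was 0.08, beside 0.01 for all genes tested. No other tool was run. An exact two-sided permutation test of 3 libraries against 3 reaches p = 0.1 at the lowest.

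**Figure D1:**
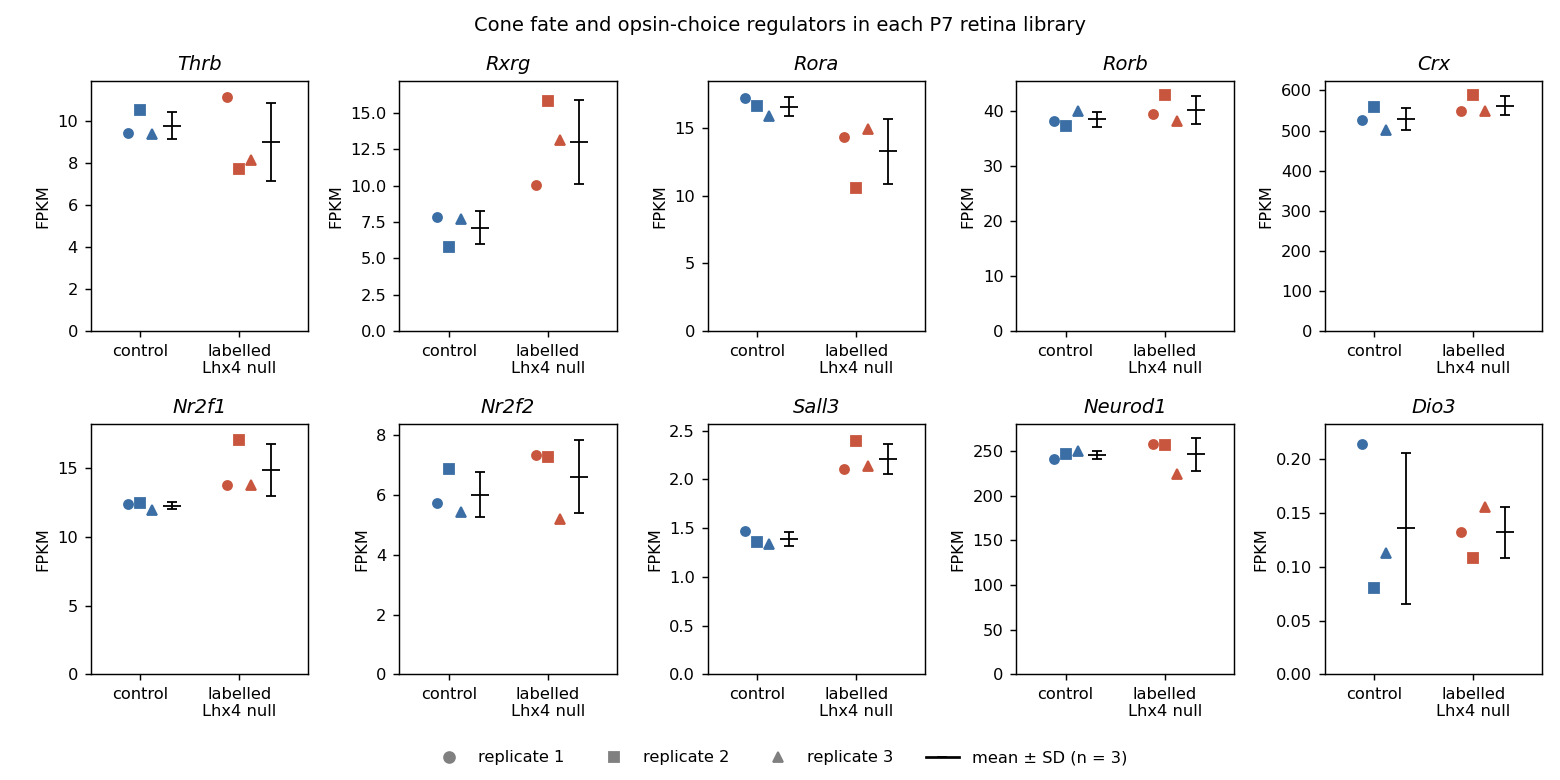
FPKM (vertical axes, each from 0) of the 10 regulators in 3 control retinas (blue) and 3 retinas labelled *Lhx4* null (red). Symbols mark replicate numbers, and black bars the mean ± SD (n = 3). *Rxrg*, *Sall3*, and *Nr2f1* lie higher without overlap and *Rora* lower without overlap, while the other 6 overlap.

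The levels of the regulators spanned more than 3 orders of magnitude. In control retinas, *Crx* was at 528 ± 28 FPKM (mean ± SD, n = 3), 3893 times the level of *Dio3* at 0.136 ± 0.070 FPKM. Between them lay *Neurod1* (246 ± 4 FPKM), *Rorb* (38.5 ± 1.4 FPKM), *Rora* (16.6 ± 0.7 FPKM), *Nr2f1* (12.2 ± 0.2 FPKM), *Thrb* (9.79 ± 0.64 FPKM), *Rxrg* (7.12 ± 1.15 FPKM), *Nr2f2* (6.01 ± 0.76 FPKM), and *Sall3* (1.39 ± 0.07 FPKM). Each of these ranges was clear of its neighbor's except that *Rxrg* overlapped *Nr2f2*. In the retinas labelled *Lhx4* null, the order differed in the middle: *Nr2f1* (14.9 ± 1.9 FPKM), *Rora* (13.3 ± 2.4 FPKM), *Rxrg* (13.0 ± 2.9 FPKM), and *Thrb* (9.01 ± 1.86 FPKM) followed each other, each overlapping the next. The spread in this group was also wider for most of the regulators. The coefficient of variation of *Rora* was 4.06% in control retinas and 18.02% in the others, and that of *Thrb* 6.53% and 20.7%.

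Among the hormone receptors, *Rxrg* (ENSMUSG00000015843, chr1:167598384-167639623, + strand, here and below in GENCODE vM21 on GRCm38) was the member with the largest difference. It was at 7.83, 5.79, and 7.74 FPKM across control replicates 1, 2, and 3 and at 10.02, 15.8, and 13.1 FPKM in the retinas labelled *Lhx4* null. All 3 of the latter lay above all 3 control retinas. The difference was 1.80-fold (log2 fold change 0.85, 95% interval 0.43 to 1.26, unadjusted p = 0.0014, adjusted p = 0.19 from limma), and over 15 alternative settings the log2 fold change lay between 0.69 and 1.02. Whether cells that make *Rxrg* were more numerous or held more of it cannot be told apart in bulk RNA, and the same holds for each gene below. The related receptors *Rxra* and *Rxrb*, which can take its place beside THRB, had log2 fold changes of 0.13 and 0.08, with overlapping groups.

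*Thrb* (ENSMUSG00000021779, chr14:17660261-18038090, + strand), the thyroid hormone receptor that RXRG partners, was at 9.46, 10.5, and 9.38 FPKM across control replicates 1, 2, and 3 and at 11.2, 7.74, and 8.15 FPKM in the retinas labelled *Lhx4* null. Replicate 1 of the latter lay above all control retinas and replicates 2 and 3 lay below them. The log2 fold change was -0.13 (95% interval -0.46 to 0.19, unadjusted p = 0.37 from limma). The value depended on single libraries: it was -0.30 without *Lhx4* null replicate 1 (unadjusted p = 0.018, adjusted p = 0.29 from limma), -0.035 without *Lhx4* null replicate 2 (unadjusted p = 0.82), -0.072 without *Lhx4* null replicate 3, and -0.081 without control replicate 2. The other thyroid hormone receptor gene, *Thra*, was at 165 ± 2 FPKM in control retinas and 167 ± 9 FPKM in the others, and its log2 fold change of 0.02 had a 95% interval of -0.14 to 0.18.

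Measured within a library, *Thrb* was more abundant than *Rxrg* in every control library, with ratios of 1.21, 1.82, and 1.21. In the retinas labelled *Lhx4* null the ratio was 1.11, 0.490, and 0.620, so that *Rxrg* exceeded *Thrb* in replicates 2 and 3. The groups did not overlap. The difference of the log2 ratio was -0.98 (two-sided exact permutation test, p = 0.1, which is the lowest it can give, or 0.25 after Benjamini-Hochberg adjustment over 5 pairs). This difference is the log2 fold change of *Thrb* minus that of *Rxrg*, so it restates the values above and is not a separate result. The difference was -1.32 when *Lhx4* null replicate 1 was left out and -0.73 when *Lhx4* null replicate 2 was. 

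**Figure D2:**
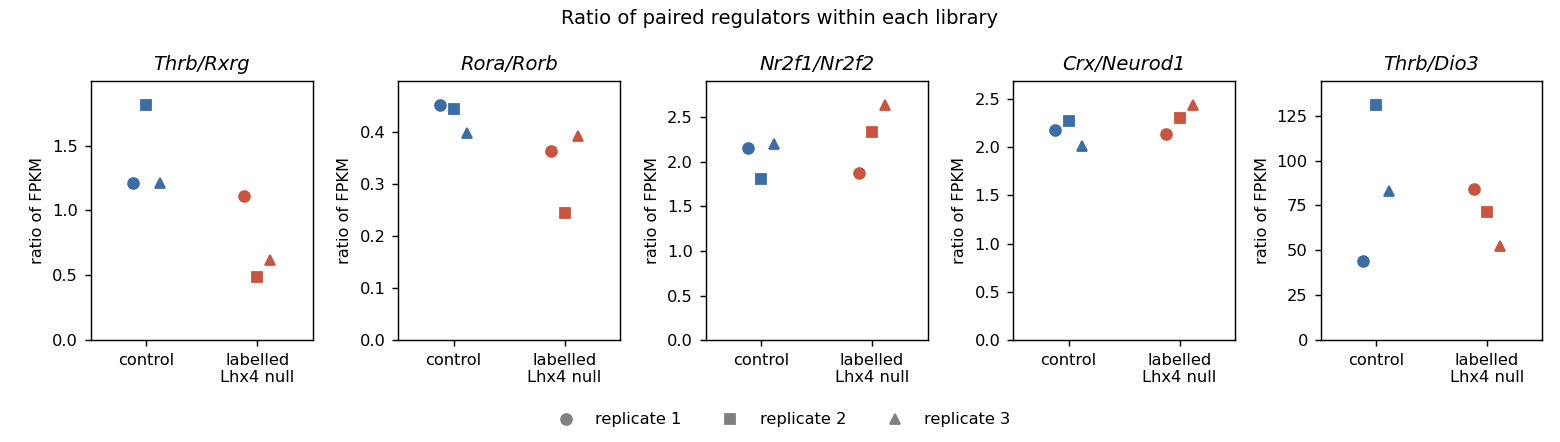
Ratio of FPKM (vertical axes, each from 0) between paired regulators within each of 3 control retinas (blue) and 3 retinas labelled *Lhx4* null (red), with symbols for replicate numbers. *Thrb*/*Rxrg* and *Rora*/*Rorb* are lower without overlap in the retinas labelled *Lhx4* null, and the other 3 ratios overlap.

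*Dio3* (ENSMUSG00000075707, chr12:110279068-110281097, + strand) was the least abundant of the 10. It was at 0.214, 0.0802, and 0.113 FPKM across control replicates 1, 2, and 3 and at 0.133, 0.108, and 0.155 FPKM in the others, with full overlap. After multiplication by relative depth, the 6 values stood in the ratio of the whole numbers 20, 6, 11, 6, 6, and 10, each to within 0.1, and the fragments behind them may be these numbers or a multiple of them. The log2 fold change was 0.01, with a 95% interval of -0.67 to 0.70 on FPKM + 0.1 that widened to -1.09 to 1.20 with 0.01 added in place of 0.1, and the coefficient of variation among control retinas was 51.5%. *Dio2*, the deiodinase that activates thyroid hormone, was also low, at 0.647, 0.980, and 0.587 FPKM in control retinas and 1.04, 0.372, and 0.431 FPKM in the others.

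The ROR receptors are *Rora* (ENSMUSG00000032238, chr9:68653786-69388246, + strand) and *Rorb* (ENSMUSG00000036192, chr19:18930605-19111196, − strand). *Rora* was at 17.2, 16.6, and 15.9 FPKM across control replicates 1, 2, and 3 and at 14.3, 10.5, and 15.0 FPKM in the retinas labelled *Lhx4* null, where all 3 lay below the control retinas. The log2 fold change was -0.33 (95% interval -0.63 to -0.035, unadjusted p = 0.033, adjusted p = 0.59 from limma). Without *Lhx4* null replicate 2, which had the lowest value, it was -0.18 with an unadjusted p of 0.056 from limma. *Rorb*, which is required for S-opsin and for rods, was at 38.1, 37.3, and 39.95 FPKM in control retinas and at 39.4, 43.0, and 38.1 FPKM in the others, with a log2 fold change of 0.06 (95% interval -0.10 to 0.23) that was 0.013 without *Lhx4* null replicate 2, 0.098 without *Lhx4* null replicate 3, and 0.041 without control replicate 2. The ratio of *Rora* to *Rorb* was 0.453, 0.445, and 0.398 in control retinas and 0.363, 0.245, and 0.392 in the others. These ratios did not overlap, and the difference of the log2 ratio was -0.40 (exact permutation test, two-sided p = 0.1, or 0.25 adjusted over 5 pairs). It likewise restates the log2 fold changes of *Rora* and *Rorb*. Without *Lhx4* null replicate 2 the difference was -0.19. The longest exact run that transcripts of *Rora* and *Rorb* share in GENCODE vM21 is 31 bases.

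**Figure D3:**
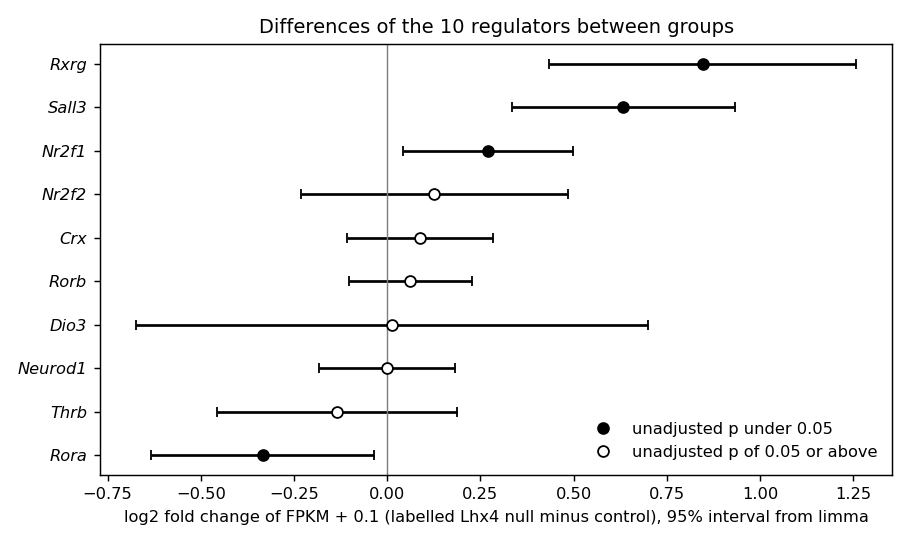
Log2 fold change (horizontal axis, retinas labelled *Lhx4* null minus control, on FPKM + 0.1) of the 10 regulators, with 95% intervals from limma. Filled points had an unadjusted p under 0.05. The intervals of *Rxrg*, *Sall3*, and *Nr2f1* lie above 0 and that of *Rora* below 0, and *Dio3* has the widest interval, -0.67 to 0.70.

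Of the COUP-TF receptors, *Nr2f1* (ENSMUSG00000069171, chr13:78188973-78199757, − strand) was at 12.3, 12.4, and 11.95 FPKM across control replicates 1, 2, and 3 and at 13.8, 17.0, and 13.8 FPKM in the retinas labelled *Lhx4* null. The groups did not overlap, and *Lhx4* null replicate 2 stood highest. The difference was 1.21-fold (log2 fold change 0.27, 95% interval 0.04 to 0.50, unadjusted p = 0.025, adjusted p = 0.56 from limma). Without *Lhx4* null replicate 2 the log2 fold change was 0.17 and the unadjusted p from limma was 0.059. *Nr2f2* (ENSMUSG00000030551, chr7:70351944-70366735, − strand) was at 5.73, 6.87, and 5.44 FPKM in control retinas and at 7.36, 7.29, and 5.20 FPKM in the others. *Lhx4* null replicate 3 had the lowest value of the 6 and replicates 1 and 2 the highest, and the log2 fold change of 0.13 had a 95% interval of -0.23 to 0.48. It was 0.042 without *Lhx4* null replicate 1, 0.048 without *Lhx4* null replicate 2, 0.29 without *Lhx4* null replicate 3 (unadjusted p = 0.054 from limma), 0.22 without control replicate 2, and 0.058 without control replicate 3. The ratio of *Nr2f1* to *Nr2f2* lay between 1.81 and 2.20 in control retinas and between 1.87 and 2.64 in the others (exact permutation test, two-sided p = 0.4). Transcripts of *Nr2f1* and *Nr2f2* share an exact run of 59 bases, the longest of the 7 related pairs compared, and 7.46% of the exon bases of *Nr2f2* and 2.42% of those of *Nr2f1* lie opposite a non-coding gene. Whether strand was used to assign reads is not known.

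*Sall3*, a zinc finger factor of S-cones and of horizontal and bipolar cells (ENSMUSG00000024565, chr18:80966376-80986771, − strand), had the smallest p of the 10. It was at 1.47, 1.36, and 1.34 FPKM across control replicates 1, 2, and 3 and at 2.11, 2.39, and 2.14 FPKM in the retinas labelled *Lhx4* null. The lowest of the latter was well above the highest control value. The difference was 1.55-fold (log2 fold change 0.63, 95% interval 0.33 to 0.93, unadjusted p = 0.0012, adjusted p = 0.17 from limma), which ranked 103 among the 15200 genes. The unadjusted p stayed under 0.05 in each of 14 alternative fits, and the log2 fold change lay between 0.43 and 0.67. Its relative *Sall1* was at 0.689 ± 0.090 FPKM in control retinas and 0.966 ± 0.081 FPKM in the others, also without overlap (log2 fold change 0.44, unadjusted p = 0.033, adjusted p = 0.59 from limma).

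*Crx* (ENSMUSG00000041578, chr7:15865947-15879968, − strand) and *Neurod1* (ENSMUSG00000034701, chr2:79452521-79456751, − strand), the abundant photoreceptor factors, were measured with the narrowest intervals beside *Rorb*. *Crx* was at 526, 558, and 502 FPKM across control replicates 1, 2, and 3 and at 548, 589, and 548 FPKM in the retinas labelled *Lhx4* null. *Neurod1* was at 241, 246, and 250 FPKM in control retinas and at 257, 256, and 225 FPKM in the others. Both overlapped. The 95% interval of the log2 fold change was -0.11 to 0.28 for *Crx* and -0.18 to 0.18 for *Neurod1*, and its upper end was a 1.22-fold and a 1.13-fold difference, respectively. The log2 fold change of *Crx* was 0.09, and it was 0.052 without control replicate 3, 0.053 without *Lhx4* null replicate 2, and 0.15 under quantile normalization. The ratio of *Crx* to *Neurod1* lay between 2.01 and 2.27 in control retinas and between 2.13 and 2.44 in the others (exact permutation test, two-sided p = 0.4). Of the exon bases of *Neurod1*, 13.0% are also covered by *Cerkl* or *Gm26755*.

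The other regulators of cone fate and thyroid hormone response, 45 genes listed by role, also had no call after adjustment. Of 44 tested, 0 had an adjusted p under 0.05 in limma, against 0.224% of all genes tested. With an unadjusted p under 0.05 in limma were 1 higher (*Sall1*) and 1 lower (*Hr*), against 4.6% and 3.55% of all genes. *Hr*, a corepressor whose gene responds to thyroid hormone, was at 21.4, 22.1, and 20.5 FPKM in control retinas and at 18.5, 13.5, and 13.0 FPKM in the mutants (log2 fold change -0.53, 95% interval -0.83 to -0.22, adjusted p = 0.33 from limma). The groups did not overlap, and without *Lhx4* null replicate 1 *Hr* passed, with a log2 fold change of -0.69 and an adjusted p of 0.027 from limma. In the other 13 of 14 alternative fits, 0 of these regulators passed. Leaving out that library also raised the genes with an unadjusted p under 0.05 in limma from 1239 to 1980. *Otx2*, which acts before *Crx* in photoreceptor and bipolar fate, and *Nrl* and *Nr2e3*, which set rods apart from cones, had log2 fold changes of 0.07, -0.05, and 0.10, all with overlapping groups. Over the 44 genes the median was 0.10, and 33 were higher.

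The opsins, whose transcription these factors set, went in opposite directions, and *Opn1sw* passed the test. *Opn1sw* was at 103, 92.9, and 85.2 FPKM in control retinas and at 201, 153, and 164 FPKM in the retinas labelled *Lhx4* null, a rise of 1.84-fold (log2 fold change 0.88, standard error 0.12, adjusted p = 0.031 from limma) that was above an adjusted p of 0.05 in 8 of 14 alternative fits, among them those without any 1 control retina and without *Lhx4* null replicate 2 or 3 (0.062 to 0.14). *Opn1mw* was at 1.41, 2.75, and 1.46 FPKM and at 0.699, 0.351, and 0.367 FPKM (log2 fold change -1.77, adjusted p = 0.097 from limma). *Opn1sw* was the only 1 of the 14 cone phototransduction genes to pass, against 0.224% of all genes tested. In limma, 3 lower and 5 higher genes had an unadjusted p under 0.05, against 3.55% and 4.6% of all genes. Of the 3 lower genes, *Grk1* overlapped between the groups, at 45.6, 56.7, and 46.4 FPKM in control retinas and 49.9, 25.4, and 27.2 FPKM in the others. Within each group its order over the replicates was that of the summed rod genes given below, so the count may not describe cones alone. Cone arrestin *Arr3* (log2 fold change -1.27) and the cone phosphodiesterase subunit *Pde6h* (0.79) had adjusted p-values of 0.077 and 0.076 from limma. Of the exon bases of *Opn1sw*, 15.5% lie opposite *Calu*, and the same limit holds.

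**Figure D4:**
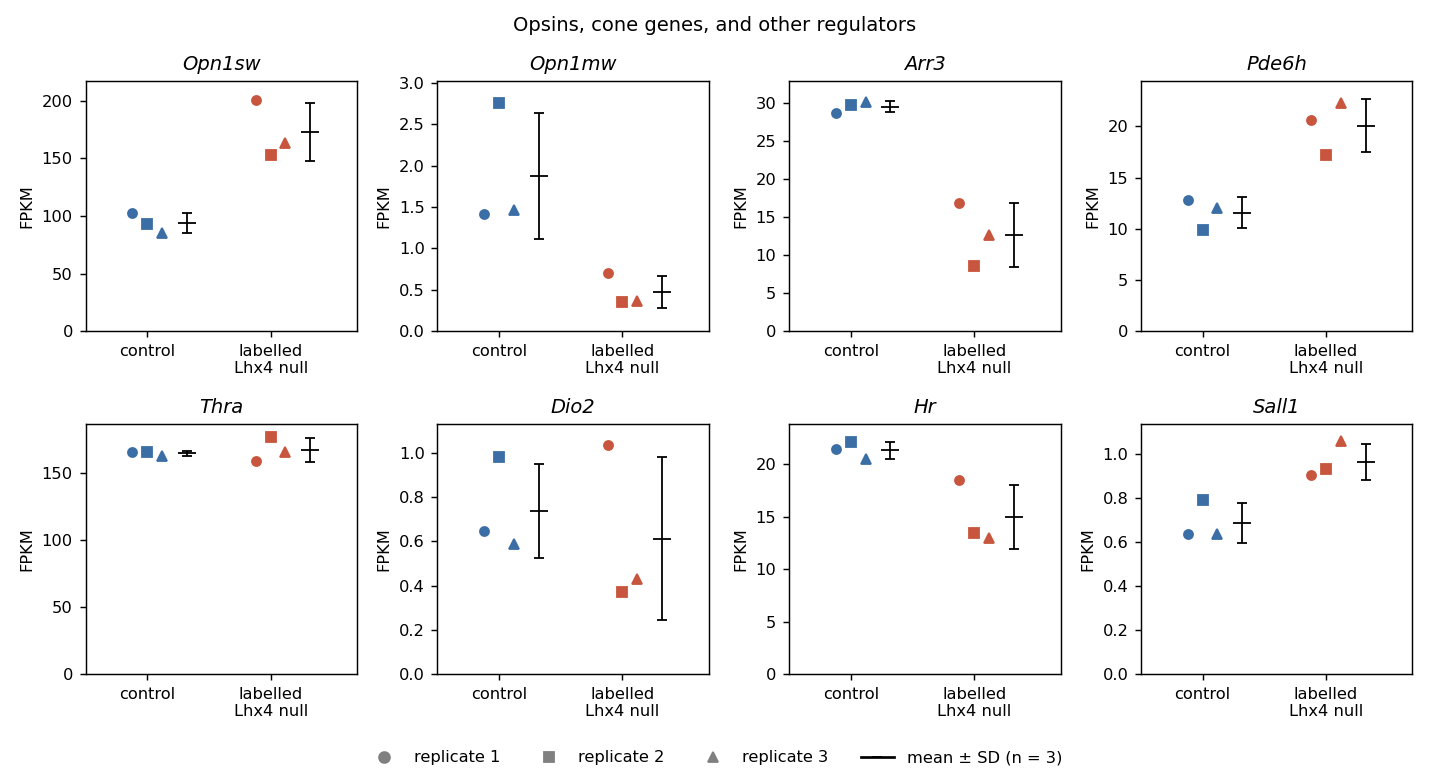
FPKM (vertical axes, each from 0) of opsins, cone genes, and other regulators in 3 control retinas (blue) and 3 retinas labelled *Lhx4* null (red). Symbols mark replicate numbers, and black bars the mean ± SD (n = 3). *Opn1sw*, *Pde6h*, and *Sall1* lie higher and *Opn1mw*, *Arr3*, and *Hr* lower without overlap, while *Thra* and *Dio2* overlap.

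Within each group, the library with the most *Thrb* also had the least *Rxrg*. In control replicate 2, *Thrb* was highest at 10.5 FPKM and *Rxrg* lowest at 5.79 FPKM, and *Opn1mw* (2.75 FPKM), *Dio2* (0.980 FPKM), and *Hr* (22.1 FPKM) were the highest of the control retinas. In *Lhx4* null replicate 1, *Thrb* at 11.2 FPKM, *Opn1mw* at 0.699 FPKM, *Dio2* at 1.04 FPKM, and *Hr* at 18.5 FPKM were the highest of their group, and *Rxrg* at 10.02 FPKM was the lowest. The same libraries had the highest sums of the listed rod genes and the lowest of the listed progenitor and cell cycle genes. The summed FPKM of 12 rod genes was 5573 in control replicate 2 against 4540 and 4585 in control replicates 1 and 3. It was 5064 in *Lhx4* null replicate 1 against 3419 and 3733 in replicates 2 and 3. The rod factors *Nrl* and *Nr2e3*, which are not in that list, did not follow it throughout. *Nrl* was lowest of its group in control replicate 2 (447 FPKM against 478 and 478) and highest in *Lhx4* null replicate 1 (462 FPKM against 436 and 455). *Nr2e3* was at 735 FPKM in control replicate 2 against 789 and 722. It was lowest of its group in *Lhx4* null replicate 1 (772 FPKM against 829 and 798). The sum of 8 progenitor and cell cycle genes was 45.3 in control replicate 2 against 66.1 and 68.1, and 54.8 in *Lhx4* null replicate 1 against 118 and 84.2. This order was noticed after the values were seen, with 3 libraries a group, and it was not tested.

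Among markers of other cells, the bipolar list was the only 1 of 11 with genes that passed the test. The study had reported *Bhlhe23*, *Lhx3*, *Grik1*, *Fezf2*, *Gsg1*, *Grm6*, *Pcp2*, and *Trpm1* as reduced at P7 in these data, and the list holds them. The contrast with the other lists is therefore not independent of the study's result. Over all genes tested, 0.224% passed, and 4.6% higher and 3.55% lower had an unadjusted p under 0.05 in limma. All 12 bipolar genes were lower, 8 of them at an adjusted p under 0.05 in limma (*Bhlhe23*, *Lhx3*, *Grik1*, *Fezf2*, *Gsg1*, *Grm6*, *Pcp2*, and *Isl1*), with a summed level of 542 to 711 FPKM in control retinas and 330 to 370 FPKM in the others. Of 12 amacrine genes 11 were higher, 0 of them at an adjusted p under 0.05 in limma and 4 at an unadjusted p under 0.05 (*Gad2*, *Tfap2a*, *Tfap2b*, and *Pax6*), with sums of 519 to 567 and 567 to 611 FPKM. The 6 horizontal cell genes summed to 93.5 to 119 and 101 to 119 FPKM, and 5 were higher with 0 at an unadjusted p under 0.05 in limma. All 12 rod genes were lower and all 8 progenitor and cell cycle genes higher, again with 0 at an adjusted p under 0.05 in limma and with 1 rod gene (*Gngt1*) and 2 progenitor genes (*Sfrp2* and *Sox2*) at an unadjusted p under 0.05, and the sums of both overlapped. Of 8 pigment epithelium genes 7 were higher, 4 of them at an unadjusted p under 0.05 in limma (*Mlana*, *Oca2*, *Pmel*, and *Ttr*) and 0 after adjustment, with sums of 24.7 to 44.2 and 46.5 to 77.4 FPKM. These sums did not overlap, and whether the tissue left after dissection differed between the groups was not tested. Ganglion (4 of 8 higher), Müller glia (7 of 8), microglia (5 of 6), endothelium (1 of 5), and erythroid genes (2 of 4) had 0 genes at an adjusted p under 0.05 in limma and from 0 to 2 at an unadjusted p under 0.05. The latter were *Pou4f1* and *Isl2* (ganglion), *Dkk3* (Müller glia), *Csf1r* and *Tyrobp* (microglia), and *Kdr* (endothelium), all higher, and *Pecam1* (endothelium), lower. The sums of these lists were 276 to 303 and 276 to 299 FPKM for ganglion, 353 to 400 and 394 to 434 FPKM for Müller glia, 27.1 to 30.5 and 30.4 to 41.1 FPKM for microglia, 54.8 to 66.0 and 61.6 to 69.5 FPKM for endothelium, and 125 to 257 and 154 to 194 FPKM for erythroid genes. No gene of these lists was at 0 in any library. The part of these cells in the differences of *Rxrg*, *Sall3*, *Nr2f1*, and *Rora* was not tested.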

How the data were processed

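The deposited values are FPKM per gene from paired-end RNA-seq of P7 retina, 3 control and 3 *Lhx4* null mice, which the authors made with TopHat2 and Cufflinks on GRCm38. Versions, annotation, and strand setting are not given in the sources used here. FPKM are not counts, so limma 3.58.1 in R 4.3.3 (lmFit, then eBayes with trend, no covariates) was applied to log2(FPKM + 0.1), *Lhx4* null minus control, for genes averaging 0.1 FPKM or more, with two-sided p-values adjusted over all genes by Benjamini-Hochberg. Of 6 repeated symbols, the more abundant entry was used. Ratios of regulators were tested by exact permutation in Python 3.11.15 with scipy 1.17.1. Relative depth was the most frequent ratio between libraries over 5708 genes under 0.1 FPKM in all of them. In GENCODE vM21, 21603 of 21744 identifiers were found. The fits and the depth estimate were tested on simulated data.

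The regulators and gene lists were chosen with earlier results of these data known. The genes named are the 10 regulators, *Lhx4*, *Opn1sw*, *Opn1mw*, *Arr3*, *Thra*, *Dio2*, *Otx2*, *Nrl*, *Nr2e3*, and, per list, those with an adjusted p under 0.05 and up to 4 with the largest change at an unadjusted p under 0.05. *Rxra*, *Rxrb*, *Grk1*, *Rpe65*, *Tyr*, *Rdh5*, and *Mitf* were added with their values in view. Alternatives were a pseudocount of 1 or 0.01 FPKM, no filter or one at 1 FPKM, median-of-ratios or quantile scaling, no trend, a replicate block, leaving out each library, and, added after seeing the data, the ratio of group means. A listed regulator is not reported here, and the counts of its list leave it out.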

Additional observations from a re-analysis of the deposited data

How the results depend on the processing

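In limma, 0 of the 10 regulators passed at an adjusted p of 0.05 under 14 alternative fits, and *Rxrg* (adjusted p 0.073 to 0.57) and *Sall3* (0.096 to 0.63) kept their direction. From 2 to 5 regulators had an unadjusted p under 0.05 when 1 library was left out, 2 of them without control replicate 1, control replicate 3, or *Lhx4* null replicate 2. *Neurod1* and *Dio3* lay near 0 and turned: *Neurod1* to 0.0034 under quantile normalization, to 0.0017 as the ratio of means, and between -0.034 and 0.063 with 1 library left out, and *Dio3* to -0.0031 with a pseudocount of 1 FPKM, to -0.040 as the ratio of means, and between -0.16 and 0.24 with 1 library left out. The log2 ratio of *Thrb* to *Dio3* turned from -0.15 to 0.080 without control replicate 2 and was -0.40 at the lowest. No value of *Dio3* remained under the filter at 1 FPKM.

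Over all genes, 34 had an adjusted p under 0.05 from limma, 21 lower and 13 higher. The counts were 15, 11, and 4 with the replicate block and 0, 0, and 0 without the filter on low values, where 1507 of 21744 had an unadjusted p under 0.05. With 1 library left out they were 15 to 31, 13 to 19, and 2 to 12. Without the filter, 0 cone genes and 0 cell type markers passed. The cone genes that passed were also 0 under quantile normalization and without the trend, and 0 to 3 with 1 library left out. The cell type markers that passed were 8, or 5 with the replicate block and 5 to 8 with 1 library left out, and other regulators 0 to 1. The causes were not tested. Same-numbered libraries did not deviate together (r = -0.18, -0.047, and 0.19 for numbers 1, 2, and 3 over 12485 genes), so the numbers were not read as pairs. The block changed no call of a regulator. Every library labelled *Lhx4* null was shallower than every control library, and depth and group cannot be told apart. Nothing shows whether the libraries share a litter or a day.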
